A study of Rattus norvegicus with 3 samples.

Results

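Cholinergic nuclei of the rat brain were picked from single-nucleus counts by the genes that make and recycle acetylcholine. A nucleus was taken when it held at least 500 detected genes, at least 1 UMI (unique molecular identifier, 1 captured RNA molecule) of the synaptic vesicle gene Syt1, and at least 2 UMIs summed over Chat and Slc5a7. A further gene of the rule, Slc18a3, is not listed by name in the feature tables used here and added nothing. The rule took 94 of 51647 barcodes, 32 in the LPS library, 25 in the poly(I:C) library and 37 in the saline library. They were set against 41247 other neurons, meaning Syt1-positive nuclei with at least 500 genes and no UMI of Chat or Slc5a7.

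The animals were wild-type (WT) female rats of the outbred strain Crl:CD(SD), 12 weeks old. One group received lipopolysaccharide (LPS), a bacterial cell wall component, at 5 mg/kg, another poly(I:C), a synthetic double-stranded RNA that mimics viral RNA, at 12 mg/kg, and the control group saline, all by intraperitoneal injection. Brains were taken after 7 h. Nuclei of 4 rats were pooled for each treatment into 1 library, and no nucleus is assigned to a rat, so the treatments are compared without replicates and intervals cover counting error only.

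Chat makes acetylcholine from choline and acetyl-CoA, Slc5a7 carries choline back into the terminal, and Slc18a3 loads acetylcholine into vesicles. In the forebrain, acetylcholine comes from interneurons of the striatum, from projection neurons of the basal forebrain and, in rodent cortex, from some bipolar interneurons that also make Vip. Subcortical forebrain cholinergic neurons arise from ventral progenitors and depend on the transcription factors Lhx8 and Isl1. Other cholinergic groups lie in the medial habenula, which uses Pou4f1, and in the brainstem and motor nuclei, where genes such as Isl2 and the Hox genes are used.

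Depth differed between the libraries. The cholinergic nuclei held 104313 UMIs in all after LPS, 49150 after poly(I:C) and 73802 after saline, with a median of 2557, 1920 and 1977 UMIs per nucleus in that order. The other neurons had medians of 2743.5, 1407 and 1368 UMIs. Barcode sequences were shared between 247 and 550 times per pair of libraries, none of them among the cholinergic nuclei. Scrublet, which marks likely doublets, called 3 of the 32 LPS, 0 of the 25 poly(I:C) and 3 of the 37 saline cholinergic nuclei.

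The genes used by the rule were as follows, as a description. Chat had 76 UMIs in 30 of 32 LPS nuclei, 47 UMIs in 21 of 25 poly(I:C) nuclei and 67 UMIs in 32 of 37 saline nuclei. Slc5a7 had 47, 30 and 42 UMIs in those libraries. Both genes were seen in 20 LPS, 17 poly(I:C) and 20 saline nuclei. Many nuclei lay at the threshold: 11 LPS, 10 poly(I:C) and 19 saline nuclei held exactly 2 UMIs, and the most in any nucleus was 13. Just outside the rule, 63 LPS, 60 poly(I:C) and 106 saline nuclei held exactly 1 UMI. As a background, none of 1238 LPS, 727 poly(I:C) and 1415 saline Syt1-negative nuclei reached 2 UMIs, which allows shares of up to 0.242%, 0.413% and 0.212%. Likewise none of 421 LPS, 173 poly(I:C) and 283 saline nuclei with at least 2 UMIs of Slc17a7, a cortical glutamate transporter, reached 2 UMIs.

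The label was checked against genes the rule did not use. Of a list of 13 forebrain cholinergic identity genes, at least 1 UMI was found in 18 of 32 LPS nuclei (56.2%), 17 of 25 poly(I:C) nuclei (68%) and 26 of 37 saline nuclei (70.3%), against 16.2%, 9.47% and 9.43% of other neurons. Among nuclei with at least 4 UMIs of Chat plus Slc5a7 the counts were 11 of 13, 6 of 7 and 7 of 7. Among nuclei with exactly 2 UMIs they were 3 of 11, 4 of 10 and 11 of 19, and just outside the rule 15.9%, 23.3% and 22.6%. Of 5 fitted genes of the 11 on the medial habenula list, 2 were higher in cholinergic nuclei than in other neurons and 0 lower. The test across all genes is described below, and over all its genes 1.59% were higher and 5.22% lower. Rare genes absent from cholinergic nuclei were not fitted and could not be called lower. The 2 higher genes were Nwd2 and the nicotinic subunit Chrna3 (log2 fold change 5.39). Chrna3 rests on few UMIs, given below, and is counted there again among the acetylcholine receptors. Nwd2 had 1534, 916 and 1274 CPM in cholinergic nuclei against 232, 255 and 257 CPM in other neurons (adjusted p = 1.87e-26, edgeR). The list as a whole gave 175, 48 and 102 UMIs, of which Nwd2 made 160, 45 and 94. That is 1678, 977 and 1382 CPM in cholinergic nuclei, against 253, 279 and 284 CPM in other neurons. These UMIs were concentrated: 7 LPS, 4 poly(I:C) and 8 saline nuclei held at least 5 of them, a minimum chosen after the values were seen, and 1 LPS nucleus held 44. Of these 19 nuclei, 14 held no UMI of the forebrain identity list. Pou4f1, a defining factor of the medial habenula, had no UMI in any cholinergic nucleus. That allows shares of up to 9.38% of LPS, 12% of poly(I:C) and 8.11% of saline cholinergic nuclei, and more within the 19 nuclei alone. The origin of those 19 nuclei was not tested. The hindbrain and motor neuron list gave 14, 8 and 17 UMIs, of which Slit3 made 13, 7 and 17. In all, 61 of the 94 nuclei held a UMI of the identity list and 33 held none. The identity list gave 95, 46 and 79 UMIs, of which Tacr1, a receptor and not a transcription factor, made 46, 21 and 45.

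**Figure D1:**
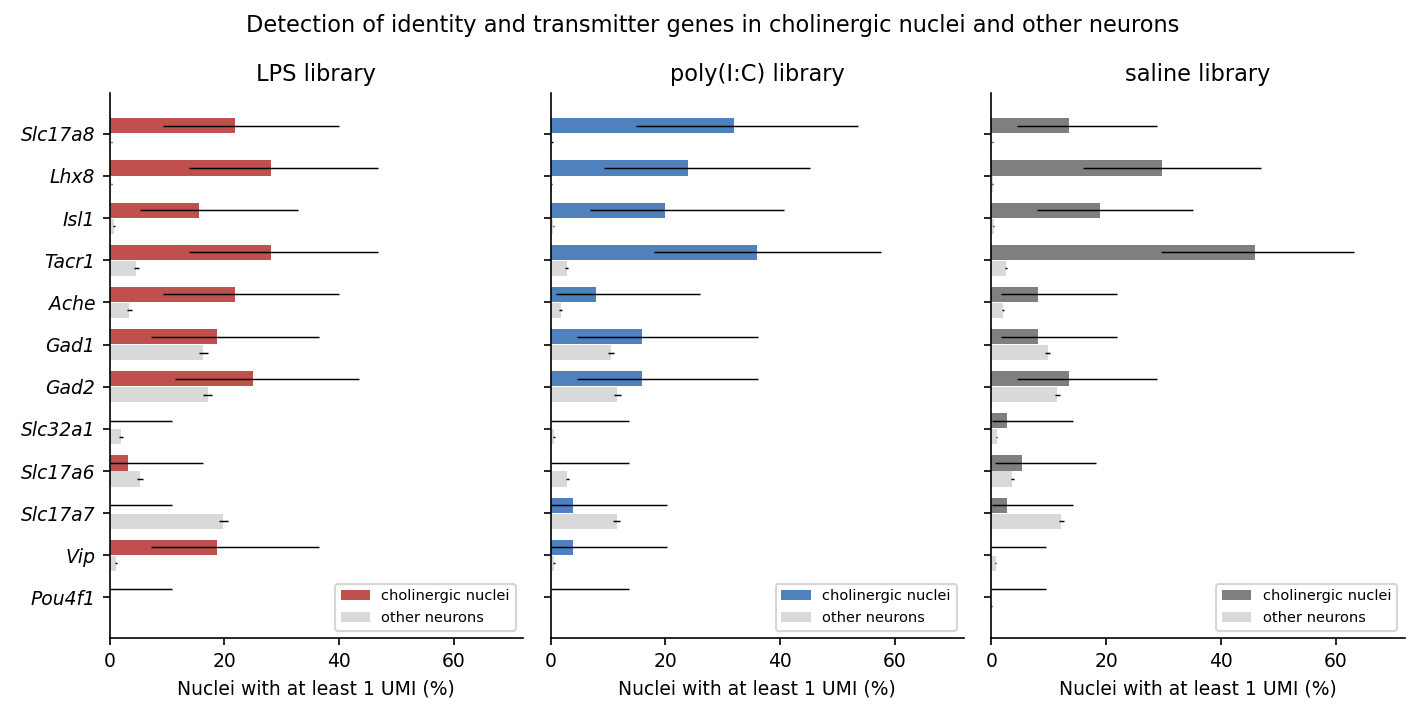
Percent of cholinergic nuclei and of other neurons with at least 1 UMI of identity and transmitter genes, by library, with 95% Clopper-Pearson intervals. Lhx8 was seen in 28.1% of LPS, 24% of poly(I:C) and 29.7% of saline cholinergic nuclei, while Pou4f1 was not seen in them, and Vip was seen in 18.8%, 4% and 0%.

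Cholinergic nuclei made 0.346% of Syt1-positive nuclei after LPS (32 of 9253, 95% Clopper-Pearson interval 0.237 to 0.488%), 0.202% after poly(I:C) (25 of 12389, 0.131 to 0.298%) and 0.186% after saline (37 of 19928, 0.131 to 0.256%). The LPS share was 1.86-fold the saline share, with a counting interval of 1.12 to 3.07. The poly(I:C) share was 1.09-fold, with an interval of 0.627 to 1.85. Because a nucleus with more UMIs reaches the rule more easily, each nucleus was also thinned to 1000 UMIs. The shares were then 0.143% (12 nuclei), 0.103% (10 nuclei) and 0.112% (16 nuclei), and the LPS ratio was 1.28 with an interval of 0.552 to 2.88. Among nuclei with at least 1000 genes the shares were 0.320%, 0.399% and 0.282%, with an LPS ratio of 1.13 (0.609 to 2.13). Without nuclei that held a Vip UMI, the LPS ratio was 1.52 (0.885 to 2.58). Stricter rules without a match of depth kept the ratio above 1, at 2.15 (1.10 to 4.22) with both genes detected and 2.51 (1.27 to 5.00) with at least 3 UMIs. Depth matched by bins of total UMIs gave differences of opposite direction. Between 1000 and 2000 UMIs the share was 0.558% after LPS (11 of 1971, 0.279 to 0.996%), 0.150% after poly(I:C) (11 of 7309, 0.0752 to 0.269%) and 0.149% after saline (15 of 10079, 0.0833 to 0.245%), and the LPS and saline intervals did not overlap. Between 2000 and 4000 UMIs the share was 0.241% after LPS (12 of 4981, 0.125 to 0.420%), 0.401% after poly(I:C) (10 of 2494, 0.192 to 0.736%) and 0.416% after saline (18 of 4329, 0.247 to 0.656%), with overlapping intervals. At 4000 UMIs and above, 9 of 1882 LPS, 1 of 161 poly(I:C) and 0 of 403 saline nuclei were cholinergic. Between 500 and 1000 UMIs the counts were 0 of 419, 3 of 2425 and 4 of 5117. In both of these bins the LPS and saline intervals overlapped. The difference in share thus varied with how depth was matched and with whether Vip-positive nuclei were counted. The thinned interval also contains the ratio of 1.86. What lay behind the difference was not tested.

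**Figure D2:**
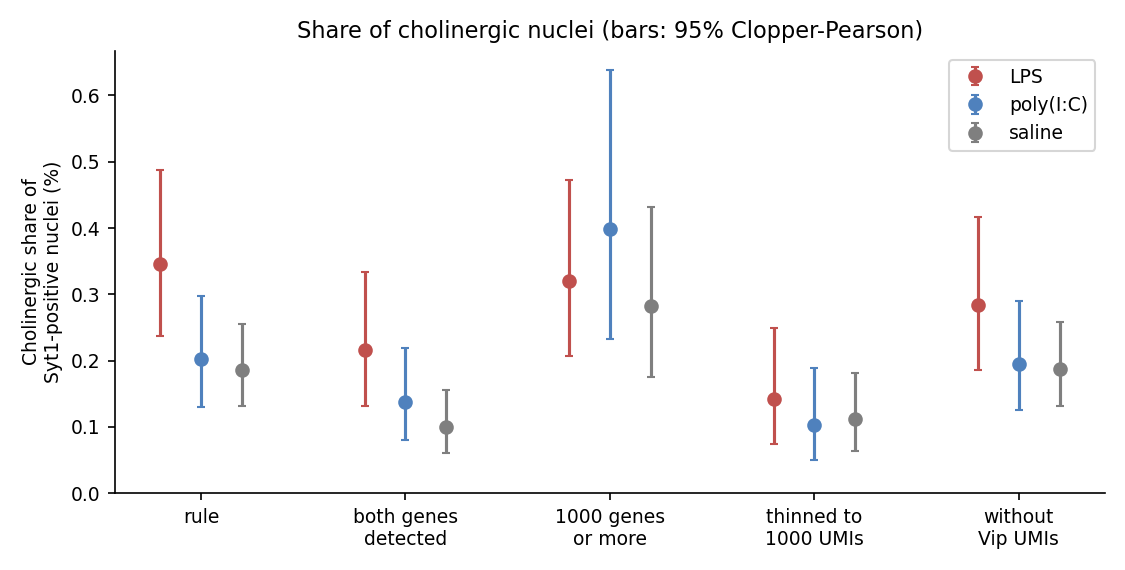
Cholinergic share of Syt1-positive nuclei in percent by library under the rule and 4 stricter or depth-matched settings, with 95% Clopper-Pearson intervals. The LPS library stands highest under the rule at 0.346%, and after thinning to 1000 UMIs the 3 libraries lie between 0.103% and 0.143% with overlapping intervals.

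The nuclei were split by the transmitter genes they carried beside acetylcholine. Gad1 and Gad2 make GABA, and Slc17a6 and Slc17a7 load glutamate into vesicles. UMIs of Gad1 or Gad2 without Slc17a6 or Slc17a7 were found in 13 of 32 LPS nuclei (40.6%, 23.7 to 59.4%), 8 of 25 poly(I:C) nuclei (32%, 14.9 to 53.5%) and 7 of 37 saline nuclei (18.9%, 7.96 to 35.2%). The 3 intervals overlap, and the same sign was found in 23.3%, 17.6% and 16.3% of other neurons. Slc17a6 alone was found in 1 LPS, 0 poly(I:C) and 2 saline nuclei. Slc17a7 alone was found in 0, 1 and 1 nuclei, against 17.6%, 10.6% and 10.9% of other neurons. No cholinergic nucleus carried a Gad UMI together with Slc17a6 or Slc17a7, and 18, 16 and 27 nuclei carried none of these 4 genes. Among the genes of the split a Gad UMI was the most common in all 3 libraries, but most of these nuclei held fewer than 2 UMIs of either Gad gene. With at least 2 UMIs of a transmitter gene required, the shares were 15.6%, 4% and 2.70%. The GABA vesicle transporter Slc32a1 gave 0, 0 and 1 UMIs in the cholinergic nuclei. Of the Gad-only nuclei, 8 of 13 LPS, 7 of 8 poly(I:C) and 5 of 7 saline nuclei also held a forebrain identity UMI. Gad-only and glutamatergic cholinergic nuclei were not tested against each other, because the glutamatergic set held 1, 1 and 3 nuclei.

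Another vesicular glutamate transporter, Slc17a8, which was not part of the split, was seen in more cholinergic nuclei than Slc17a6 or Slc17a7. It was seen in 7 of 32 LPS, 8 of 25 poly(I:C) and 5 of 37 saline nuclei, with 27, 14 and 10 UMIs. In 3 LPS, 3 poly(I:C) and 0 saline nuclei it stood beside a Gad UMI, so the Gad-only nuclei of the split include 6 that carried this glutamate transporter. Its level was 259, 285 and 136 CPM (a gene's UMIs per fixed total of UMIs) in cholinergic nuclei, against 1.12, 1.90 and 1.49 CPM in other neurons. The difference was a log2 fold change of 6.93 (SE 0.48, adjusted p = 1.47e-44, edgeR).

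Across all genes, cholinergic nuclei were tested against other neurons with edgeR's quasi-likelihood test, pairing the 2 sums of each library as a block, so that the 3 libraries served as replicates of the within-library difference. Of 13418 genes tested, 914 passed an adjusted p under 0.05 (6.81%), 214 of them higher (1.59%) and 700 lower (5.22%) in cholinergic nuclei. The split depends on scaling: with relative log expression factors it was 276 higher and 479 lower, and with no scaling factors 358 higher and 359 lower, while the median log2 fold change of 651 well-counted genes was -0.17, 0.01 and 0.17 under the 3 scalings. Log2 fold changes below come from the first scaling and are to be read against its shift of -0.17. The spread between libraries was estimated jointly over all genes from 2 residual degrees of freedom each. The prior degrees of freedom were infinite, so no gene had a spread of its own. The p-values therefore do not measure how far a single gene varied between libraries. Matching other neurons to the cholinergic nuclei on total UMIs left 1494 genes to test, of which 169 were higher and 213 lower. The count of calls was 570 without the LPS library, 663 without the poly(I:C) library, 494 without the saline library and 457 with DESeq2.

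Some identity genes of the forebrain cholinergic lineage stood far above other neurons. Of the 13 genes of the identity list 9 were fitted, of which 5 were higher and 0 lower. The shares over all tested genes were 1.59% higher and 5.22% lower. The filter on low counts keeps a gene rare in other neurons, such as Lhx8, only if it has UMIs in cholinergic nuclei. A rare gene absent from cholinergic nuclei is not fitted and cannot be called lower. The count of 0 lower therefore says little about rare genes, here and in the other lists. The count of 5 higher is limited too, since a gene such as Lhx8 entered the test through the nuclei where it is high. For that reason no p-value is given for Lhx8. Lhx8, the LIM-homeodomain factor of the lineage, had 192, 142 and 176 CPM in LPS, poly(I:C) and saline cholinergic nuclei. In other neurons it had 0.937, 1.49 and 1.86 CPM, a log2 fold change of 6.65 (SE 0.53). Isl1, its partner factor, had a log2 fold change of 4.89 (adjusted p = 1.43e-14). Tacr1, the receptor for substance P, reached 441, 427 and 610 CPM in cholinergic nuclei and 22, 22.9 and 19.8 CPM in other neurons (log2 fold change 4.19). Zic4, a zinc finger factor of septal and other midline cells, had a log2 fold change of 3.05 (adjusted p = 0.0276) from 5, 1 and 1 UMIs. Nkx2-1, a factor of the ventral progenitors, had 2, 1 and 0 UMIs and did not pass (adjusted p = 0.161). Lhx8, Isl1, Tacr1 and Zic4 were higher in cholinergic nuclei than in other neurons in each of the 3 libraries.

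The machinery of acetylcholine was partly higher. Of 13 genes beside those of the rule, 4 were higher and 0 lower, against 1.59% and 5.22% of all tested genes. One of the 4 was Slc17a8, the glutamate transporter described above, which the list holds although it carries glutamate. Prima1, which anchors acetylcholinesterase in the membrane, had 642, 610 and 488 CPM in cholinergic nuclei against 5.37, 5.24 and 6.79 CPM in other neurons, a log2 fold change of 6.31 (SE 0.26, adjusted p = 4.69e-123). Slc10a4, a vesicle protein of cholinergic and monoamine neurons, had 8, 4 and 12 UMIs and a log2 fold change of 7.57 (SE 0.72). Acly, which supplies acetyl-CoA, had 345, 549 and 420 CPM against 27.6, 28.7 and 30.7 CPM (log2 fold change 3.52). Ache, the enzyme that breaks acetylcholine down, had 67.1, 40.7 and 40.6 CPM against 12.0, 11.4 and 12.9 CPM and narrowly missed the threshold (adjusted p = 0.0561). Slc44a1, a choline transporter-like protein found in many cells, had a log2 fold change of -0.73 and did not pass.

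Of 10 fitted acetylcholine receptor genes, 2 were higher and 1 lower under each scaling. Over all genes tested under the first scaling, 1.59% were higher and 5.22% lower. Chrm2, the muscarinic receptor known as the cholinergic autoreceptor, had 719, 1099 and 1301 CPM in cholinergic nuclei against 107, 112 and 118 CPM in other neurons (log2 fold change 2.82). Chrm3 was lower, with 422, 305 and 163 CPM against 876, 932 and 891 CPM (log2 fold change -1.91). Chrna3, a nicotinic subunit, had 11, 1 and 5 UMIs and a log2 fold change of 5.39 (SE 0.75). Drd2, the dopamine receptor of striatal indirect-pathway neurons and of striatal cholinergic interneurons, had 307, 265 and 271 CPM against 30.2, 32.4 and 20.8 CPM (log2 fold change 3.04). Among the 15 genes named for the largest increases were also Sv2c, a synaptic vesicle protein, Cacna2d2, a calcium channel subunit, Kcnh8, a potassium channel, Serpine2, a protease inhibitor, and the factors Pbx3 and Zfp521, with log2 fold changes between 2.45 and 3.70.

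Of 23 synaptic genes 11 were lower and 0 higher, against 5.22% lower and 1.59% higher over all tested genes. Calls were more common among the 651 well-counted genes, of which at least 133 were lower and at least 89 higher. Synaptic and channel genes were not set against genes of like counts. The lower synaptic genes included the AMPA receptor subunits Gria1 (log2 fold change -0.93) and Gria2 (-1.50) and the NMDA receptor subunit Grin1 (-1.16). The metabotropic glutamate receptors Grm5 and Grm7 had log2 fold changes of -2.07 and -2.19, and Dlgap2, a scaffold of the postsynaptic density, -2.65. Of 22 potassium and sodium channel genes 9 were lower, such as Kcnq5 (-1.95) and Kcnh7 (-1.72), and 2 were higher, Scn9a (1.82) and Kcnip1 (1.22). The sums pool unlike nuclei. In the LPS, poly(I:C) and saline libraries, the nucleus with the most medial habenula list UMIs (44, 21 and 18) held 76, 43 and 53 channel list UMIs. The medians per cholinergic nucleus were 35, 20 and 24. Those nuclei held 2171, 1049 and 1412 UMIs in all, against medians of 2557, 1920 and 1977. Channel genes were not tested without such nuclei. Of 8 cortical excitatory markers 5 were lower, with Tbr1 at 0 in all cholinergic nuclei. These counts move with the scaling. With relative log expression factors, 6 synaptic genes, 8 channel genes and 5 cortical excitatory markers were lower. With no scaling factors the lower genes numbered 6, 8 and 3, and no synaptic gene or cortical excitatory marker was higher under any of the 3 scalings. The channel genes called higher then numbered 3 and 4. Of the acetylcholine machinery 5 and 6 genes were higher under those scalings, and of the identity list 5 and 6.

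**Figure D3:**
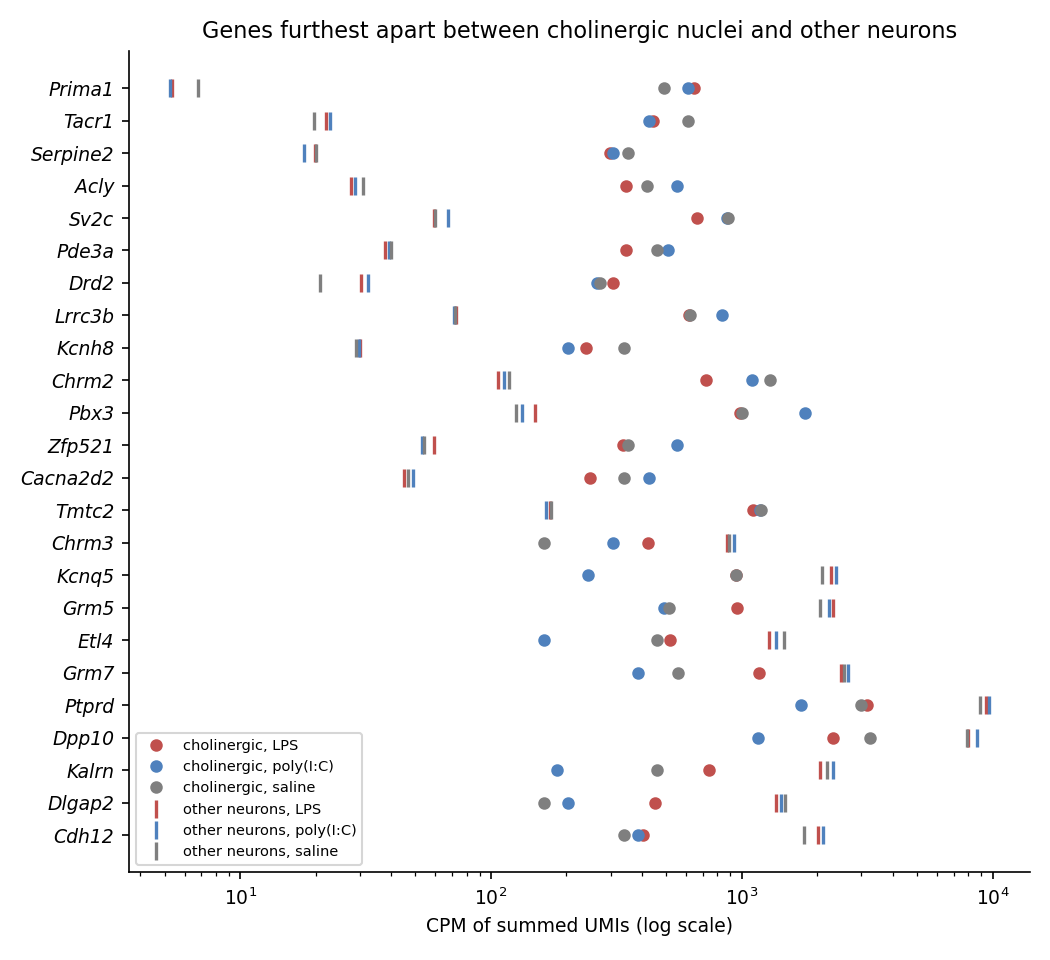
Levels of genes named for the largest differences, as CPM of summed UMIs on a log axis, in cholinergic nuclei (points) and other neurons (ticks) of each library. Prima1 and Tacr1 are more than 10-fold apart in all 3 libraries, and the LPS and poly(I:C) points of Kcnq5, Grm7 and Kalrn lie apart from each other.

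Markers of other cells were counted in the same nuclei. Oligodendrocyte markers gave 10, 4 and 19 UMIs in the LPS, poly(I:C) and saline cholinergic nuclei, which is 95.9, 81.4 and 257 CPM against 325, 233 and 298 CPM in other neurons, and 3 of 10 were lower, though 0 of 10 were under either of the other scalings. The share lower over all genes tested under the first scaling was 5.22%. Microglia markers gave 1, 2 and 5 UMIs and endothelial markers 3, 0 and 1. Astrocyte markers gave 39, 2 and 11 UMIs (374, 40.7 and 149 CPM, against 238, 192 and 205 CPM in other neurons), of which the glutamate transporter Slc1a2 made 34, 2 and 9, and 24 of the 39 LPS UMIs came from a single nucleus.

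Some of the cholinergic nuclei carried many UMIs of Adarb2 and few of the identity list. Adarb2 marks interneurons that descend from the caudal ganglionic eminence, among them the Vip bipolar cells. At least 10 Adarb2 UMIs were found in 14 of 32 LPS nuclei (43.8%, 26.4 to 62.3%), 3 of 25 poly(I:C) nuclei (12%, 2.55 to 31.2%) and 3 of 37 saline nuclei (8.11%, 1.70 to 21.9%), against 9.75%, 4.87% and 5.74% of other neurons. Among other neurons with a Gad1 or Gad2 UMI the shares were 17.3%, 11.7% and 12.7%, so only the LPS share stood above both backgrounds by its interval. Of the cholinergic nuclei with at least 10 Adarb2 UMIs, 7, 1 and 0 held no forebrain identity UMI. Vip itself had 10, 1 and 0 UMIs, in 6 LPS nuclei, 1 poly(I:C) nucleus and 0 of 37 saline nuclei, which allows a share of up to 8.11%. All 7 Vip-positive nuclei had at least 10 Adarb2 UMIs, and only 1 had a forebrain identity UMI. The threshold of 10 UMIs was chosen after the values were seen. The nuclei that passed it had a median of 2073 UMIs in all after LPS, 2293 after poly(I:C) and 3139 after saline.

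**Figure D4:**
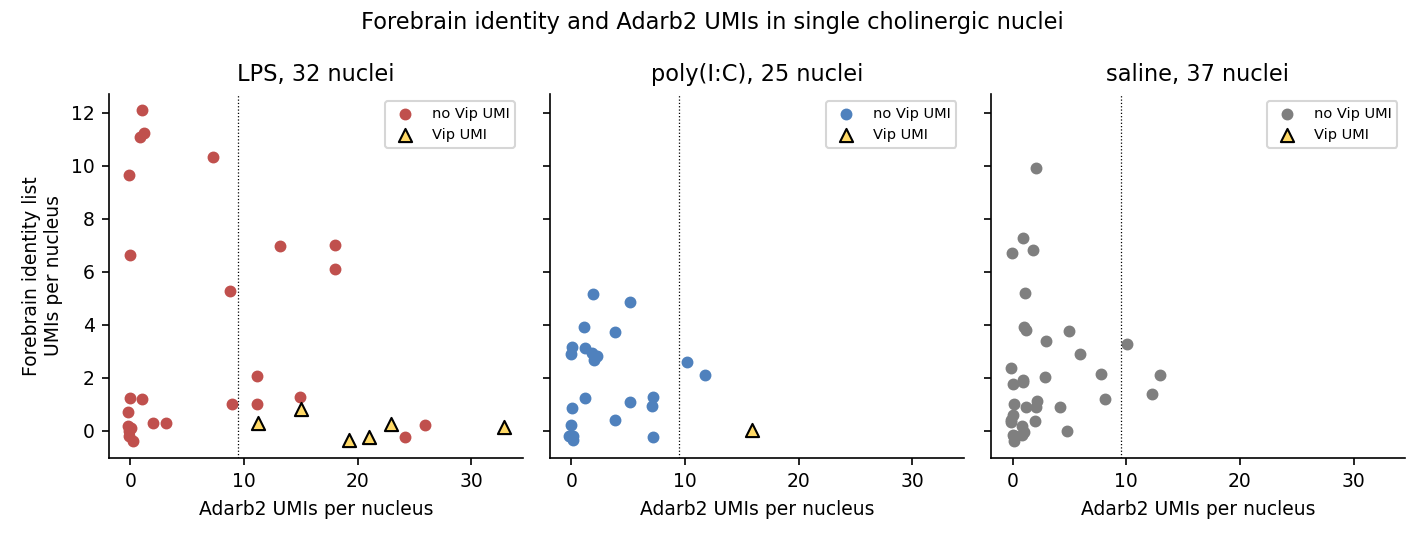
Forebrain identity list UMIs against Adarb2 UMIs in single cholinergic nuclei, 1 panel per library, with small jitter; triangles mark nuclei with a Vip UMI and the dotted line stands at 10 Adarb2 UMIs. In the LPS library 14 of 32 nuclei lie right of the line and 6 of them are Vip-positive, against 3 of 25 in the poly(I:C) library and 3 of 37 in the saline library.

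The overlap of Vip and Chat was also counted over all Vip-positive neurons, as a description. Chat is a gene of the rule, and these neurons include the 6 LPS, 1 poly(I:C) and 0 saline cholinergic nuclei with Vip given above and 16, 6 and 2 nuclei with exactly 1 UMI of Chat or Slc5a7, so the count is no independent reading. Chat was found in 18 of 118 Vip-positive LPS neurons (15.3%, 9.30 to 23.0%), 5 of 76 poly(I:C) neurons (6.58%, 2.17 to 14.7%) and 2 of 151 saline neurons (1.32%, 0.161 to 4.70%). Its level was 69.2 CPM after LPS (22 UMIs), 56.0 CPM after poly(I:C) (7 UMIs) and 7.18 CPM after saline (2 UMIs). Thinned to 1000 UMIs, 8 of 62 LPS, 1 of 34 poly(I:C) and 0 of 58 saline Vip-positive neurons held Chat. In Gad-positive neurons without Vip, Chat was found in 0.571%, 0.615% and 0.260%, with medians of 2555.5, 1317 and 1466.5 UMIs per nucleus against 1961.5, 1423 and 1436 in the Vip-positive neurons. Nuclei with both Vip and at least 10 Adarb2 UMIs numbered 105, 43 and 67, and a Chat or Slc5a7 UMI was in 22 (21.0%), 5 (11.6%) and 2 (2.99%) of them. The LPS and poly(I:C) values share 1 saline library with 2 Chat UMIs, and animals and treatment cannot be told apart.

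Poly(I:C) nuclei carried interferon-stimulated genes, which restrict viruses and are switched on by type I interferon. A list of 44 measured genes gave 75 UMIs in the poly(I:C) cholinergic nuclei and 7 in the saline ones. At least 1 such UMI was seen in 21 of 25 poly(I:C) nuclei (84%, 63.9 to 95.5%), 14 of 32 LPS nuclei and 5 of 37 saline nuclei (13.5%, 4.54 to 28.8%). Per nucleus the poly(I:C) values ran up to 9 with a median of 3, and the saline values up to 3 with a median of 0. The summed level was 1526 CPM after poly(I:C) and 94.8 CPM after saline, a 16.1-fold difference with a counting interval of 7.44 to 41.4. It was 13.4-fold (5.41 to 42.8) in nuclei with both Chat and Slc5a7, 15.4-fold (6.70 to 43.6) in nuclei with a forebrain identity UMI and 6.80-fold (2.22 to 27.8) after thinning to 1000 UMIs. No single nucleus held more than 12% of the poly(I:C) UMIs.

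Herc6, a ligase that attaches Isg15 to proteins in mouse, led with 11 UMIs in poly(I:C) nuclei against 0 in saline nuclei, which is at least 5.51-fold higher when 3 counts are put in place of 0. Parp9, an ADP-ribosyltransferase of the antiviral response, had 8 against 0 UMIs (at least 4-fold), and Usp18, which removes Isg15 and damps the interferon receptor, 7 against 0 (at least 3.50-fold). Samd9 and Rnf213, both antiviral factors, had 6 UMIs each against 0, and Rsad2, the antiviral enzyme viperin, 5 against 0 (at least 2.50-fold). Eif2ak2, the RNA-activated kinase PKR, had 9 UMIs against 1, a ratio of 13.5 with a wide counting interval of 1.87 to 592. No gene of the list reached the 20 UMIs over both libraries that were needed for a single-gene comparison, and 4 genes, Cmpk2, Isg20, Helz2 and Ifi27, had UMIs in saline nuclei (2, 1, 1 and 1) and 0 in poly(I:C) nuclei.

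In other neurons the list stood at 975 CPM after poly(I:C) and 161 CPM after saline, a 6.04-fold difference (5.85 to 6.23), and in their Gad-only, Slc17a6-only and Slc17a7-only subsets the folds were 5.59, 5.42 and 5.03. The fold in cholinergic nuclei divided by that in other neurons was 2.66, with an interval of 1.23 to 6.86 that covers counting error only and rests on the 7 saline UMIs. Other neurons matched in UMIs to the cholinergic nuclei held 28 UMIs in 25 poly(I:C) nuclei and 10 in 37 saline nuclei.

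**Figure D5:**
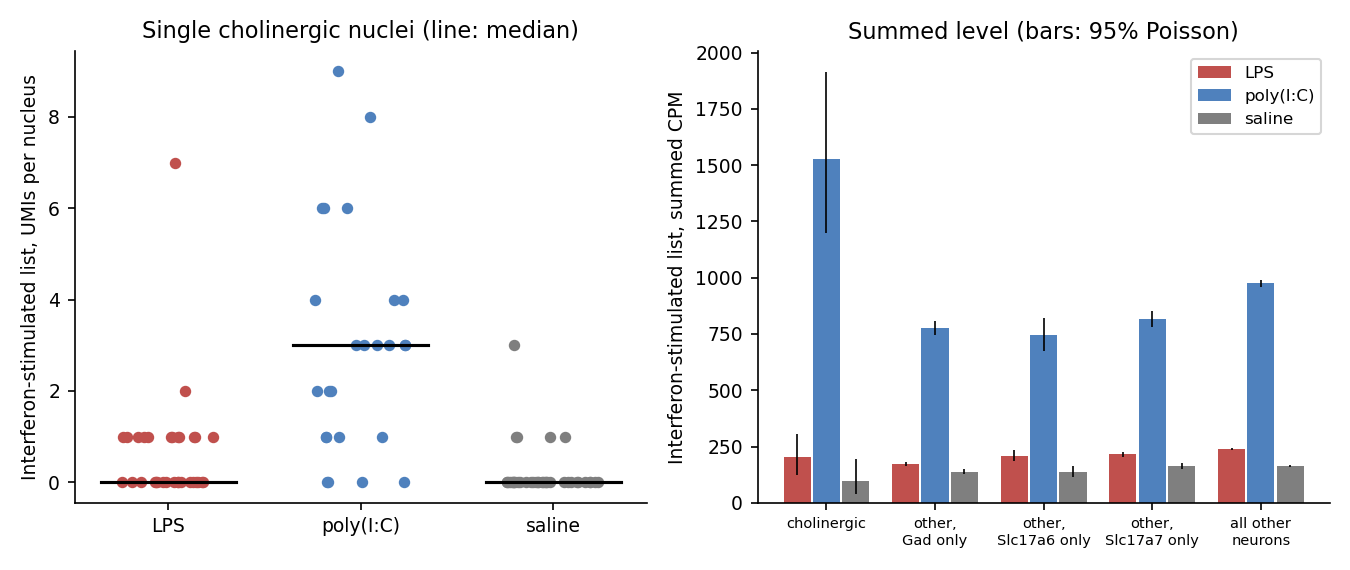
Left, UMIs of the interferon-stimulated list in single cholinergic nuclei, with medians of 0, 3 and 0 in the LPS, poly(I:C) and saline libraries. Right, summed CPM of the list with 95% Poisson intervals in cholinergic nuclei and in other neurons, where the poly(I:C) bar of cholinergic nuclei stands at 1526 CPM against 975 CPM in all other neurons.

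Interferon acts on such genes through a response element whose core reads GAAA, any 2 bases, GAAA. The promoter windows, which run from 250 bases before to 50 after the gene start in RefSeq assembly GRCr8, were searched for it on both strands. It was found for 26 of 37 list genes with a window (70.3%) and for 4.12% of all 27457 genes. Among the 7 genes with at least 5 UMIs in poly(I:C) cholinergic nuclei it was found for Eif2ak2, Rsad2 and Samd9, not for Herc6, Parp9 and Rnf213, and Usp18 had no window. The matches are shown with up to 20 bases on each side, 5′ to 3′ in the direction of the gene, with the core in capitals and TTTC, any 2 bases, TTTC for a core on the opposite strand. The Samd9 window holds 3 matches, 2 of which overlap.
Eif2ak2 promoter, GRCr8 chr6:21941118-21941167, plus strand: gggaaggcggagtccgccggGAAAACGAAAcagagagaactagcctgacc
Samd9 promoter, GRCr8 chr4:32138946-32138995, minus strand: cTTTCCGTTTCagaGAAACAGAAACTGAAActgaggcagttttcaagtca
Rsad2 promoter, GRCr8 chr6:48788238-48788287, minus strand: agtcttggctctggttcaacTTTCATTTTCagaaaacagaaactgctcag
A match describes these letters only, and no binding was measured.

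After LPS the interferon-stimulated list gave 21 UMIs in cholinergic nuclei against 7 after saline, a ratio of 2.12 with an interval of 0.869 to 5.91, and 7 of the 21 came from 1 nucleus. After thinning to 1000 UMIs the LPS ratio was 0.333 (0.00677 to 3.37). In other neurons the LPS ratio was 1.48 (1.43 to 1.54). LPS nuclei held less of the list than poly(I:C) nuclei, at 201 against 1526 CPM, a ratio of 0.132 (0.0772 to 0.216). Genes of class I antigen presentation gave 19 UMIs after LPS, 12 after poly(I:C) and 5 after saline. The ratio to saline was 2.69 (0.971 to 9.21) after LPS and 3.6 (1.18 to 13.1) after poly(I:C). The peptidase Erap1, which trims peptides for class I molecules, led it with 13, 5 and 2 UMIs. NF-kB targets gave 15, 6 and 17 UMIs, with ratios to saline of 0.624 (0.290 to 1.33) and 0.530 (0.171 to 1.41).

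Gene by gene, 1205 genes had at least 20 UMIs over the poly(I:C) and saline cholinergic nuclei. After poly(I:C), 55 of them (4.56%) stood 2-fold or more above saline and 56 (4.65%) 2-fold or more below. With 1 library per treatment these are descriptions of a pair of libraries. Dpp10, an auxiliary subunit of A-type potassium channels, had 57 UMIs against 239 after saline, a ratio of 0.358 (0.263 to 0.480), and a ratio of 1.10 in other neurons. Kcnq5, a potassium channel of the M current, had 12 UMIs against 70, a ratio of 0.257 (0.127 to 0.479). Grin2a, an NMDA receptor subunit, had 2 UMIs against 21, a ratio of 0.143 (0.0163 to 0.585). The calcium channel gene Cacna1a had 18 UMIs against 59, its relative Cacna1e had 14 UMIs against 50, and Kcnab1, a potassium channel subunit, had 9 UMIs against 38. After thinning to 1000 UMIs the ratio was 0.218 (0.0956 to 0.440) for Dpp10 and 0.0941 (0.00225 to 0.601) for Kcnq5, while the interval included 1 for Cacna1a (0.8, 0.129 to 3.75), Grin2a and Kcnab1. The potassium and sodium channel list summed to 11495 CPM after poly(I:C) and 13631 CPM after saline, a ratio of 0.843 (0.759 to 0.936). Its interval included 1 in nuclei with both Chat and Slc5a7 (0.932, 0.811 to 1.07) and after thinning. Of its 14 tested genes 1 was 2-fold lower and 0 were 2-fold higher, with a median log2 ratio of -0.08 against 0.00 over all tested genes. The sum pools nuclei rich and poor in medial habenula list UMIs, which were not separated.

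Among genes higher after poly(I:C), Nek11, a kinase, had 18 UMIs against 5 after saline, a ratio of 5.41 (1.93 to 18.6), but 44.4% of the 18 came from 1 nucleus. Ptchd4 had 42 UMIs against 25, a ratio of 2.52 (1.5 to 4.32). Nmnat2, an enzyme of NAD synthesis that maintains axons, had 28 UMIs against 17 and was found in 18 of 25 poly(I:C) nuclei and 11 of 37 saline nuclei, a ratio of 2.47 (1.31 to 4.82). After thinning, Ptchd4 had a ratio of 1.07 (0.0891 to 9.31), Nek11 3.2 (0.683 to 19.8) and Nmnat2 8 (1.70 to 75.1). In other neurons the ratio was 0.876 for Nek11, 0.933 for Ptchd4 and 1.09 for Nmnat2. The acetylcholine machinery summed to 2380 CPM after poly(I:C) and 1748 CPM after saline, a ratio of 1.36 (1.05 to 1.76). Of its 5 tested genes 1 was at least 2-fold higher, Slc17a8, with 14 UMIs against 10. The interval of the sum included 1 without the nuclei that Scrublet called (1.27, 0.975 to 1.64), in nuclei with both rule genes and after thinning.

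After LPS, 1750 genes had at least 20 UMIs over both sets of cholinergic nuclei, of which 94 (5.37%) stood 2-fold or more above saline and 53 (3.03%) 2-fold or more below. Adarb2 had 292 UMIs against 97 after saline, a ratio of 2.13 (1.69 to 2.71), and the ratio in other neurons was 0.969. Without Vip-positive nuclei the Adarb2 ratio was 1.39 (1.08 to 1.81), and in nuclei with a forebrain identity UMI 1.19 (0.900 to 1.58). The LPS library held the larger number of Adarb2-rich nuclei, as given above. Chrm3 had 44 UMIs against 12, a ratio of 2.59 (1.35 to 5.40), and 1.71 (0.655 to 4.95) in nuclei with a forebrain identity UMI. Grm7 had 122 UMIs against 41, a ratio of 2.11 (1.47 to 3.08), and 1.56 (0.911 to 2.73) in those nuclei. For both genes the interval within forebrain identity nuclei included 1. Without Vip-positive nuclei the interval included 1 for Chrm3 (1.53, 0.728 to 3.36) but not for Grm7 (1.65, 1.12 to 2.46). Rora, a nuclear receptor, had 117 UMIs against 38, a ratio of 2.18 (1.5 to 3.23), and 1.86 (1.20 to 2.95) in nuclei with a forebrain identity UMI. Kcnj3, a G-protein-gated potassium channel subunit, had 59 UMIs against 18, a ratio of 2.32 (1.35 to 4.18), and 2.22 (1.18 to 4.42) in those nuclei. Gpc5, a heparan sulfate proteoglycan, had 36 UMIs against 4, but 41.7% of the 36 came from 1 nucleus. After thinning to 1000 UMIs Rora had a ratio of 0.970 (0.339 to 2.65) and Kcnj3 1.67 (0.359 to 8.40), both with intervals that included 1. Adarb2 then had 5.93 (3.52 to 10.5), Chrm3 3.67 (1.09 to 15.8) and Grm7 4.17 (1.82 to 10.7). In other neurons the LPS ratios of the 12 genes named as higher lay between 0.887 and 1.19.

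On the lower side, Sash1, a scaffold protein, had 19 UMIs against 53 after saline and was found in 8 of 32 LPS nuclei and 20 of 37 saline nuclei. Its ratio was 0.254 (0.142 to 0.436), and 0.305 (0.167 to 0.535) in nuclei with a forebrain identity UMI. Kcnab1 had 14 UMIs against 38, a ratio of 0.261 (0.130 to 0.492). Cacna1a had 41 UMIs against 59, a ratio of 0.492 (0.322 to 0.745), and 0.502 (0.317 to 0.785) in nuclei with a forebrain identity UMI. After thinning the ratio was 1.11 (0.268 to 4.37) for Cacna1a, 0.8 (0.124 to 4.11) for Kcnab1 and 0.148 (0.00338 to 1.07) for Sash1. Each of these intervals included 1. Kcnab1, Cacna1a and Cacna1e stood below saline in the LPS and poly(I:C) nuclei before thinning, but both comparisons use the same saline nuclei. Chrm2, the muscarinic autoreceptor, had 75 UMIs against 96 after saline (719 and 1301 CPM), a ratio of 0.553 (0.403 to 0.756) that lay within 2-fold, and after poly(I:C) a ratio of 0.845 (0.594 to 1.19). The acetylcholine machinery stood at 1869 CPM after LPS and 1748 CPM after saline (1.07, 0.852 to 1.35). Of its 6 tested genes 0 were 2-fold higher and 1 was 2-fold lower, Slc10a4, with 8 UMIs against 12.

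LPS and poly(I:C) nuclei were also set against each other, which does not use the saline library. Among 1474 tested genes, LPS nuclei were 2-fold or more above poly(I:C) nuclei for 118 (8.01%) and below for 50 (3.39%). Kcnd3, an A-type potassium channel, had 33 UMIs against 1 and was found in 20 of 32 LPS nuclei. Kcnq5 had 99 UMIs against 12, a ratio of 3.89 (2.13 to 7.78), and Kalrn, an exchange factor of small GTPases in dendritic spines, had 77 UMIs against 9, a ratio of 4.03 (2.02 to 9.15). Erbb4, a neuregulin receptor of interneurons, had 285 UMIs against 59, a ratio of 2.28 (1.71 to 3.07), and 2.15 (1.41 to 3.38) in nuclei with a forebrain identity UMI. The other neurons of the same libraries had ratios of 0.993, 0.954, 0.885 and 1.08 for these 4 genes. Among 15 tested potassium and sodium channel genes, 2 reached a 2-fold excess after LPS and 0 the reverse, and the summed ratio was 1.20 (1.09 to 1.33). That sum, too, pools nuclei rich and poor in medial habenula list UMIs. Ascc3, a helicase, had 25 UMIs against 32, a ratio of 0.368 (0.209 to 0.641), where other neurons also stood below 1 at 0.678. Slc1a2 had 34 UMIs against 2, but 58.8% of the 34 came from 1 nucleus.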

How the data were processed

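Nuclei were isolated on an iodixanol gradient and sequenced with a 10x 5′ kit, per the labels' protocols. Raw UMI counts were deposited by the authors as 1 sparse matrix per library, with Cell Ranger 7.0.0 and genome build mRatBN7.2 named in the submitters' processing notes. Each library is 1 pool of 4 rats. The libraries held 29763787 (LPS), 21340578 (poly(I:C)) and 35532360 (saline) UMIs. UMIs were summed over cholinergic nuclei and over other neurons of each library. The sums were compared with edgeR 4.0.16 (R 4.3.3; TMM factors, quasi-likelihood test, library as block, Benjamini-Hochberg adjustment), with DESeq2 1.42.0 as an alternative. The library pairs the sums because both come from the same rats. On simulated counts for this comparison over 13462 genes, 74% of 50 2-fold and 100% of 50 4-fold changes were recovered. In that simulation 13 of 200 calls were false. Changes were put only into genes expected to have at least 20 UMIs per cholinergic sum before the change. All genes were drawn with 1 fixed dispersion and without a mixture of nucleus types. Recovery was therefore not tested for genes with fewer UMIs. Treatments, with 1 library each, were compared as ratios of CPM for genes with at least 20 UMIs, with exact 95% intervals from counts. These intervals and the Clopper-Pearson intervals of shares cover counting error only, and UMIs of 1 nucleus are not independent. Doublets were called with Scrublet in scanpy 1.11.5 and kept. Named genes are the 15 highest and 10 lowest past an adjusted p of 0.05, with the same direction in 3 libraries and an average of 20 UMIs. For each treatment comparison they are the 12 per direction whose interval bound lies farthest from 1, and list genes may be named too. The members and gene lists were chosen with earlier results of these data known. Promoters come from a RefSeq table of assembly GRCr8. Some genes that the rules would name are not reported here.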

Additional observations from a re-analysis of the deposited data

Results flagged for a closer look

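Nuclei with exactly 1 UMI of Chat or Slc5a7 lie outside the rule and belong neither to the cholinergic nuclei nor to the other neurons. They are part of the Vip-positive neurons counted in the report. Among them, Vip was found in 25.4% of 63 LPS nuclei, 10% of 60 poly(I:C) nuclei and 1.89% of 106 saline nuclei. The LPS value stood above that of the saline library, which drew attention to it. The Clopper-Pearson intervals were 15.3 to 37.9% after LPS and 0.229 to 6.65% after saline. All 16 Vip-positive LPS nuclei of this kind had at least 10 Adarb2 UMIs.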

How the results depend on the processing

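The LPS to saline ratio of cholinergic shares lost an interval above 1 with at least 1000 genes (1.13), after thinning (1.28), in nuclei with a forebrain identity UMI (1.49) and without Vip-positive nuclei (1.52). Gad-only shares were 15.6%, 4% and 2.70% (LPS, poly(I:C), saline) with at least 2 UMIs, and 8.33% in thinned LPS nuclei. Against other neurons, DESeq2 called 457 genes (240 lower), and depth-matched neurons gave 382 (213 lower). Leaving out 1 library gave 494 to 663 calls, 129 to 175 higher and 365 to 488 lower. No scaling factors gave 358 higher and 359 lower. Without the replicate block 965 genes were called, 842 of them shared. Genes at least 2-fold higher after LPS than saline numbered 297 with a minimum of 10 UMIs, 14 with 50, 19 after thinning and 59 in forebrain identity nuclei, and lower ones 252, 5 and 26 under the first 3. For poly(I:C) and saline the higher counts were 219, 3 and 11, and 30 with both rule genes, and the lower counts 243, 10, 17 and 28. For LPS and poly(I:C) they were 374, 20 and 14 higher and 244, 3 and 15 lower. Thinning moved the LPS interferon ratio to 0.333. Thinned ratios lay on the other side of 1 for Rora (0.970), Cacna1a (1.11) and Phactr3 (1.33) after LPS. After poly(I:C) they did so for Marchf4 (0.533), Vwc2l (0.8), Ttc37 (0.8), Arpp21 (1.6) and Myo5a (1.07). Each of these intervals included 1 and the unthinned ratio, and that of Phactr3 ran from 0.0170 to 105, so no reversal is shown. The cause was not tested, but thinning leaves 12, 10 and 16 nuclei that still meet the rule. With 1 library per treatment and 25 to 37 nuclei, differences between rats cannot be separated from treatment.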

Other observations

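Glucocorticoid-induced genes, which respond to the stress hormone corticosterone in rats, gave 50 UMIs in LPS cholinergic nuclei, 9 in poly(I:C) nuclei and 23 in saline nuclei. The ratio was 1.54 (0.921 to 2.64) for LPS to saline, 0.588 (0.239 to 1.32) for poly(I:C) to saline and 2.62 (1.27 to 6.06) for LPS to poly(I:C), where other neurons had 0.967. Zbtb16, a zinc finger factor of this list, made 18, 1 and 3 of these UMIs. Interferon and cytokine receptors gave 24, 7 and 14 UMIs, among them the interferon receptor subunit Ifnar1 with 6, 1 and 7.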
